A study of Mus musculus with 31 samples.

Results

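Splicing factors were taken as every gene of the count table whose symbol begins with Srsf, Hnrnp, Sf3a, Sf3b, Snrp, Prpf or U2af, which gave 69 of 20544 genes. They comprised 20 hnRNP genes, 11 SR protein genes, 10 genes of the tri-snRNP and of spliceosome activation, 9 SF3A and SF3B genes, 8 Sm core genes, 7 genes of the U1 and U2 snRNPs, 3 U2AF genes and 1 processed pseudogene, Hnrnpa1l2-ps2. They were measured in 31 single 2-cell mouse embryos of the WT genotype, collected 32 h post insemination, of which 16 were generated with control sperm and 15 with SER sperm. SER, sperm energy restriction and recovery, incubates sperm in IVF-TYH medium without glucose and pyruvate until they stop moving and then returns them to complete medium, while control sperm stay in complete medium throughout. Sperm came from C57BL/6J males of 12 to 14 weeks, with 1 cauda epididymis of a male going to each medium, and oocytes came from superovulated CD1 females of 8 to 10 weeks. The labels name no parents or batch for an embryo, so the p-values here measure the spread between these embryos, and batch could not be taken into account, although the study used several batches.

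In pre-mRNA splicing, the U1 snRNP binds the 5′ splice site, while U2AF and the U2 snRNP with its SF3A and SF3B subunits recognise the 3′ splice site and the branch point. Most snRNPs carry a ring of Sm proteins around their RNA. The U4/U6.U5 tri-snRNP then joins to form the spliceosome that is activated for catalysis. SR proteins mostly promote the use of exons by binding enhancers, and hnRNPs package nascent RNA and often act against exon inclusion. The mouse 2-cell embryo is the stage at which transcripts stored in the oocyte are cleared and the major wave of zygotic transcription takes place, so that both stored and new messages of these genes can be present.

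Promoters of 4 splicing factors are shown because the levels of these genes set the same pair of embryos apart in opposite directions, as described below. Srsf7 and Srsf1 were lower in these embryos than in any other, and Prpf6 and Sf3b3 were higher. Each sequence holds the 250 bases before the transcript start in RefSeq (GRCm38.p6), 5′ to 3′ on the strand of the gene. Capitals mark matches on either strand to CCAAT, the GC box GGGCGG, the TATA box TATAAA, the CRE core TGACG, the ETS core CCGGAAGT or the E box CACGTG.
Srsf7 promoter, chr17:80207306-80207555, minus strand: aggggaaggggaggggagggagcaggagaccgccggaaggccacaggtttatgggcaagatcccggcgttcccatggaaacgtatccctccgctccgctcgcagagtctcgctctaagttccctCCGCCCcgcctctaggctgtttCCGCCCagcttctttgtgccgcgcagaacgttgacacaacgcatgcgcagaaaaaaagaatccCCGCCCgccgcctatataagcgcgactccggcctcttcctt
Srsf1 promoter, chr11:88047123-88047372, plus strand: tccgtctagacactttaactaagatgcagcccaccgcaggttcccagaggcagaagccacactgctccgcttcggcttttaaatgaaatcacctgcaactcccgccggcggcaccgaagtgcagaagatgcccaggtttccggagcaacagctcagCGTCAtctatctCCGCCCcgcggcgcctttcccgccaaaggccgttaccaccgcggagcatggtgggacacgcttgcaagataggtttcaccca
Prpf6 promoter, chr2:181601069-181601318, plus strand: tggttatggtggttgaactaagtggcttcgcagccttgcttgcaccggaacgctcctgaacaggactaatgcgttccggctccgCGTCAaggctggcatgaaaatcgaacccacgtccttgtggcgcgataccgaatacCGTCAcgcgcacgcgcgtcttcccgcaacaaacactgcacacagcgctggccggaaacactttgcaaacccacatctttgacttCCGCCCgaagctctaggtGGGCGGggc
Sf3b3 promoter, chr8:110846804-110847053, minus strand: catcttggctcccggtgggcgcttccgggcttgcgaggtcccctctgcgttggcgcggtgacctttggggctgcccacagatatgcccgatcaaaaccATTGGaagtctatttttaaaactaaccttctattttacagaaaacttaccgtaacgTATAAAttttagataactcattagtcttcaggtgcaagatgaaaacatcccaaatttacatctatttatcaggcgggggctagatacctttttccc

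The Srsf7, Srsf1 and Prpf6 sequences held GC boxes and 23, 19 and 24 CpG dinucleotides. The Sf3b3 sequence held a TATA box and a CCAAT match instead, with 11 CpGs. The Prpf6 start in RefSeq lies inside the gene as annotated in GENCODE, which begins at position 181591868 of chromosome 2. Promoters were found for 60 of the 69 splicing factors, 81 promoters in all. The GC box was present in 61.7% of them against 32.7% of all 32851 promoters, the CRE core in 37.0% against 17.8%, CCAAT in 46.9% against 33.8%, the ETS core in 12.3% against 2.88%, the E box in 9.88% against 6.02% and the TATA box in 8.64% against 12.4%. The median promoter of a splicing factor held 19 CpGs and that of all genes 6, so these shares describe promoters of different base composition. A match is a run of letters and not a measured binding site.

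Embryos held 532945 to 3088396 counts on genes, with a median of 955806.5 in control- and 1375557 in SER-generated embryos. Values are given as CPM, counts scaled so that every embryo has the same total, and levels of different genes are compared only per kilobase of exon. CPM is a share of an embryo's counts, so less RNA of a gene per cell, a smaller number of cells that hold it and more RNA of other genes cannot be told apart. Splicing factors took 1.09% ± 0.294 of the counts (SD, n = 31). The share was 1.08% ± 0.263 (n = 16) in control- and 1.11% ± 0.333 (n = 15) in SER-generated embryos, and the groups overlapped. hnRNPs took 0.486% of the counts, SR proteins 0.151%, the Sm core 0.125%, and U2AF 0.0335%. Oocyte transcripts were abundant, with 25 markers summing to 11210 to 52550 CPM, and 21 markers of zygotic activation summed to 201 to 3019 CPM. Markers of cumulus cells reached 1504 CPM in 1 control-generated embryo and at most 18.9 CPM in SER-generated embryos, and 6 sperm markers stayed at or under 24.1 CPM.

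Per kilobase of exon, the mean level was highest for Hnrnpab (195 ± 105 CPM per kb, SD, n = 31), an RNA-binding hnRNP. It was followed by the Sm proteins Snrpd1 (187 ± 165) and Snrpe (147 ± 163), by Hnrnpc (132 ± 53.2), which coats nascent transcripts, and by the Sm protein Snrpg (129 ± 178). Neighbours in this order differed by less than the SD between embryos. The order differed by median, which was 193 CPM per kb for Hnrnpab, 139 for Snrpd1, 119 for Hnrnpc, 95.3 for Snrpe and 78.3 for Snrpg. Hnrnpu, a nuclear scaffold protein, had the most counts before division by length, at 763 CPM, but was number 12 per kilobase at 65.8 CPM per kb.

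Within the SR proteins, Srsf7 (75.9 CPM per kb) and Srsf2 (62.9) led and Srsf12 was almost absent. Among the U2AF genes, which recognise the 3′ splice site, U2af1l4 had 52.8 CPM per kb and U2af1 47.2, but 1086 of the 1656 exon bases of U2af1l4 overlap Gm49396 on the same strand, and 119 overlap Psenen on the opposite strand. Sf3a3 (42.2 CPM per kb) and Sf3b5 (37.8) led the SF3A and SF3B subunits. Snrpa1 of the U2 snRNP (40.4) and Snrpa of the U1 snRNP (36.5) led their class, and Prpf38a (37.4) and Prpf38b (28.5), which act in activation, led the tri-snRNP class.

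The ranking depended on which exons were counted as the length. With the exon bases of the principal transcript alone, Snrpd1 ranked 1, Snrpe 2, Hnrnpa2b1 3 and Hnrnpab 4. Snrpc moved from rank 33 to 7 and Prpf38a from 25 to 10. Srsf5 at rank 9 then stood above Srsf7 at 11, and U2af1 at 12 stood above U2af1l4 at 17.

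**Figure D1:**
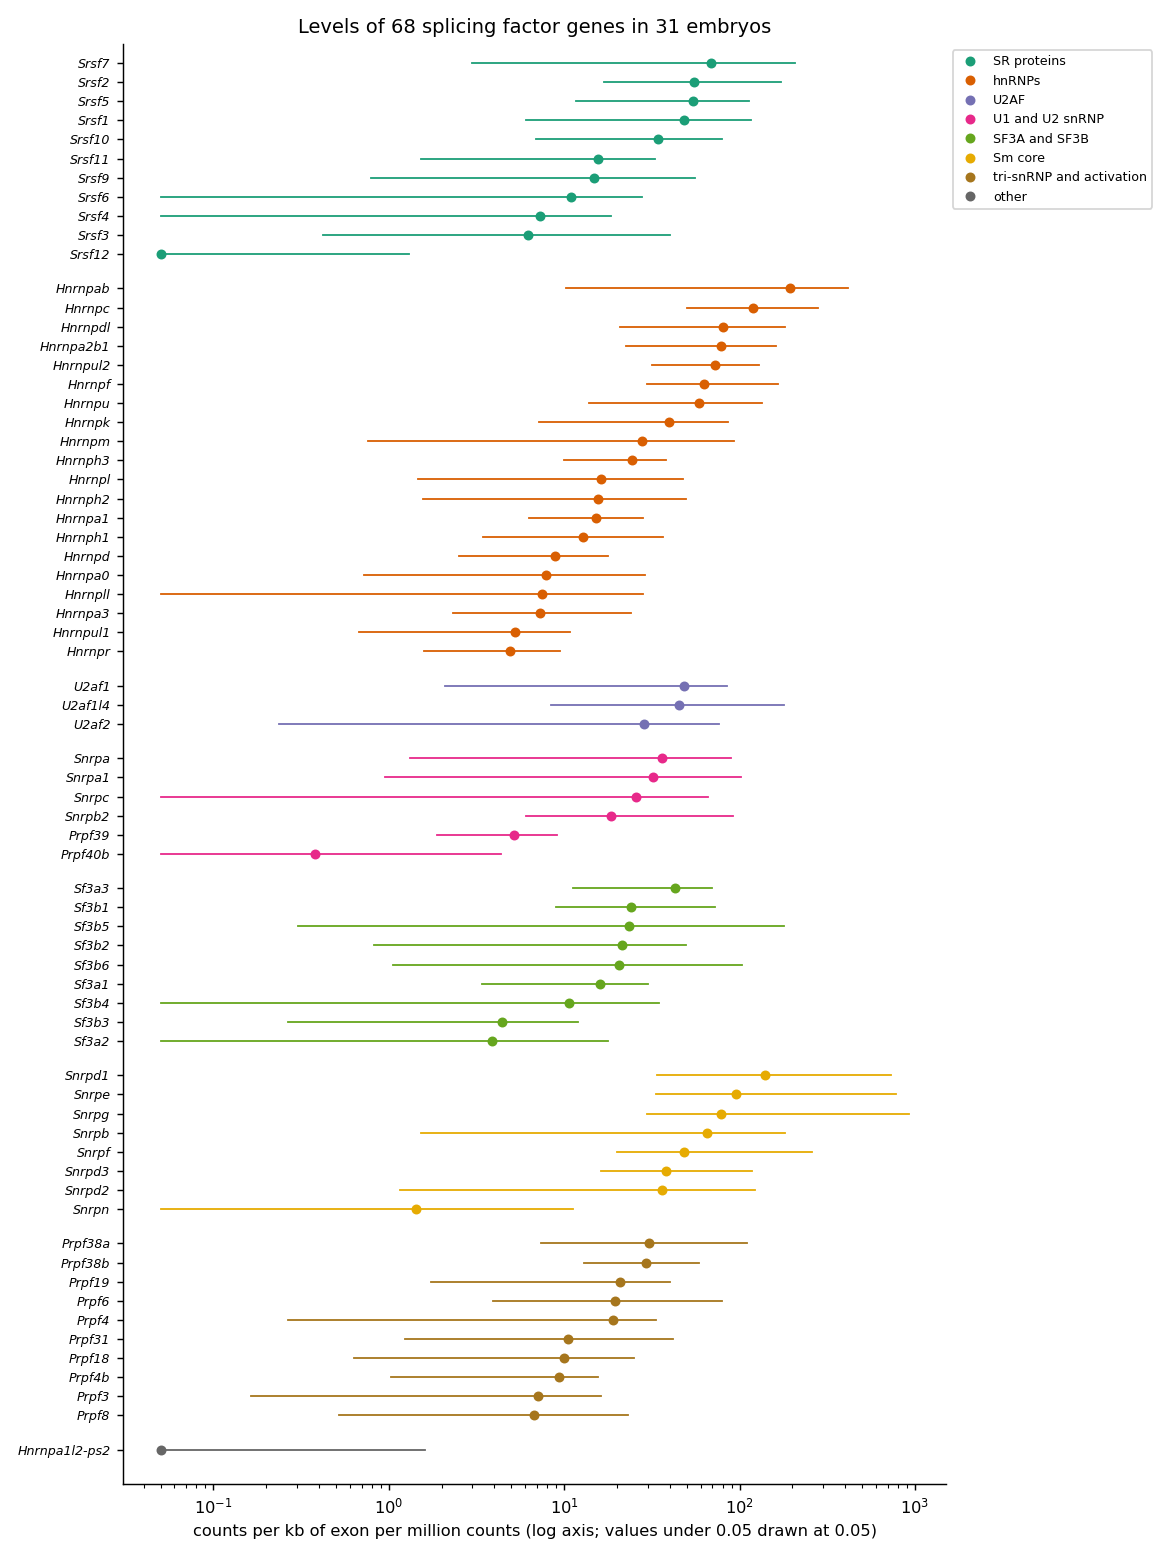
Level of 68 splicing factor genes per kilobase of exon (x axis, CPM per kb, log scale) over 31 embryos. Points are medians, lines run from the lowest to the highest embryo and colours give the class. Most genes lie between 1 and 100 CPM per kb, and Srsf12, Hnrnpa1l2-ps2, Prpf40b and Snrpn lie lowest.

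Of the 69 genes, 65 passed the filter on low counts. The others were Srsf12 with 5 counts in 3 embryos, Hnrnpa1l2-ps2 with 9 counts in 6 embryos, Prpf40b with 107 counts in 21 embryos and Snrpn with 254 counts in 28 embryos. No splicing factor was at 0 in every embryo. An embryo without a count can still hold up to 3 counts' worth of a transcript, which is 5.63 CPM in the smallest and 0.971 CPM in the largest library, counting error only. The spread between embryos, as edgeR's biological coefficient of variation, had a median of 0.579 over the 65 splicing factors and of 0.679 over all 8571 tested genes. It was lowest for Prpf38b (0.383), Hnrnpr (0.390) and Hnrnpul2 (0.392). It was highest for Sf3a2 (0.909) and Sf3b5 (0.900), subunits of SF3A and SF3B, and for the SR protein Srsf3 (0.839).

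Control replicate 4 and SER replicate 15 stood apart from the other 29 embryos in many splicing factors. Srsf7, an SR protein, had 10.6 and 11.7 CPM in these embryos and from 66.5 to 734 CPM in the others, with a median of 249.7. Srsf1, which stabilises U1 binding at 5′ splice sites, had 34.7 and 57.3 CPM against 101 to 659 in the others. Both embryos lay outside the range of all others for these genes.

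U2af1, the subunit of U2AF that reads the AG of the 3′ splice site, had 12.1 and 5.45 CPM against 48.7 to 219. Snrpb, a core Sm protein, had 3.02 and 5.84 CPM against 36.5 to 360. Hnrnpm, which regulates alternative exons, had 6.04 and 18.3 CPM against 48.8 to 739. All 3 genes were lower in both embryos than in any other.

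A pair of genes went the other way. Prpf6, which bridges the U5 and U4/U6 snRNPs in the tri-snRNP, had 308 and 227 CPM against 15.2 to 107 in the other embryos. Sf3b3, a structural subunit of SF3B, had 103 and 131 CPM against 2.93 to 89.9.

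In all, 18 of the 65 tested splicing factors lay below the range of the other embryos in both, where 13.2% of the 8571 tested genes did. They were Hnrnpa0, Hnrnpab, Hnrnpk, Hnrnpm, Hnrnpu, Prpf4, Prpf8, Sf3b5, Snrpa, Snrpb, Snrpc, Snrpd2, Srsf1, Srsf5, Srsf7, Srsf10, Srsf11 and U2af1. Prpf6 and Sf3b3 alone, 2 of 65, lay above it in both, where 4.87% of the tested genes did. SR proteins together took 0.0364% and 0.0415% of the counts of these embryos against 0.0734% to 0.263% in the others, and hnRNPs 0.225% and 0.194% against 0.315% to 0.811%. Both embryos had the lowest zygotic markers, 201 and 465 CPM in sum against 697 to 3019 in the others. The part of the low zygotic markers in the splicing factor levels was not tested. Both embryos were singled out after the data had been seen, by their place on the index of zygotic and oocyte transcripts described below. The zygotic markers enter that index, so their low values are no separate trait. The counts are a description with no test.

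SER- and control-generated embryos were compared to ask whether sperm treatment altered the expression of splicing factors. No splicing factor differed past an adjusted p of 0.1 by edgeR's quasi-likelihood test. Fitted values were lower in SER-generated embryos for 6 of the 7 tested Sm core genes and higher for most hnRNP, SR protein and SF3 genes, within the spread between embryos. This was 0 of 65, where 0% of 8571 genes passed, and the smallest adjusted p was 0.403. At an unadjusted p under 0.05, 5 of 65 splicing factors were found, 1 higher and 4 lower, where 5.73% of all tested genes were. The log2 fold change was positive for 38 and negative for 27, with a median of 0.09 against 0.02 over all tested genes. By DESeq2, 0 splicing factors and 0.605% of 7436 genes had an adjusted p under 0.1. At an unadjusted p under 0.05 it found 5 of 69 splicing factors and 973 of all 17803 genes with a count.

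**Figure D2:**
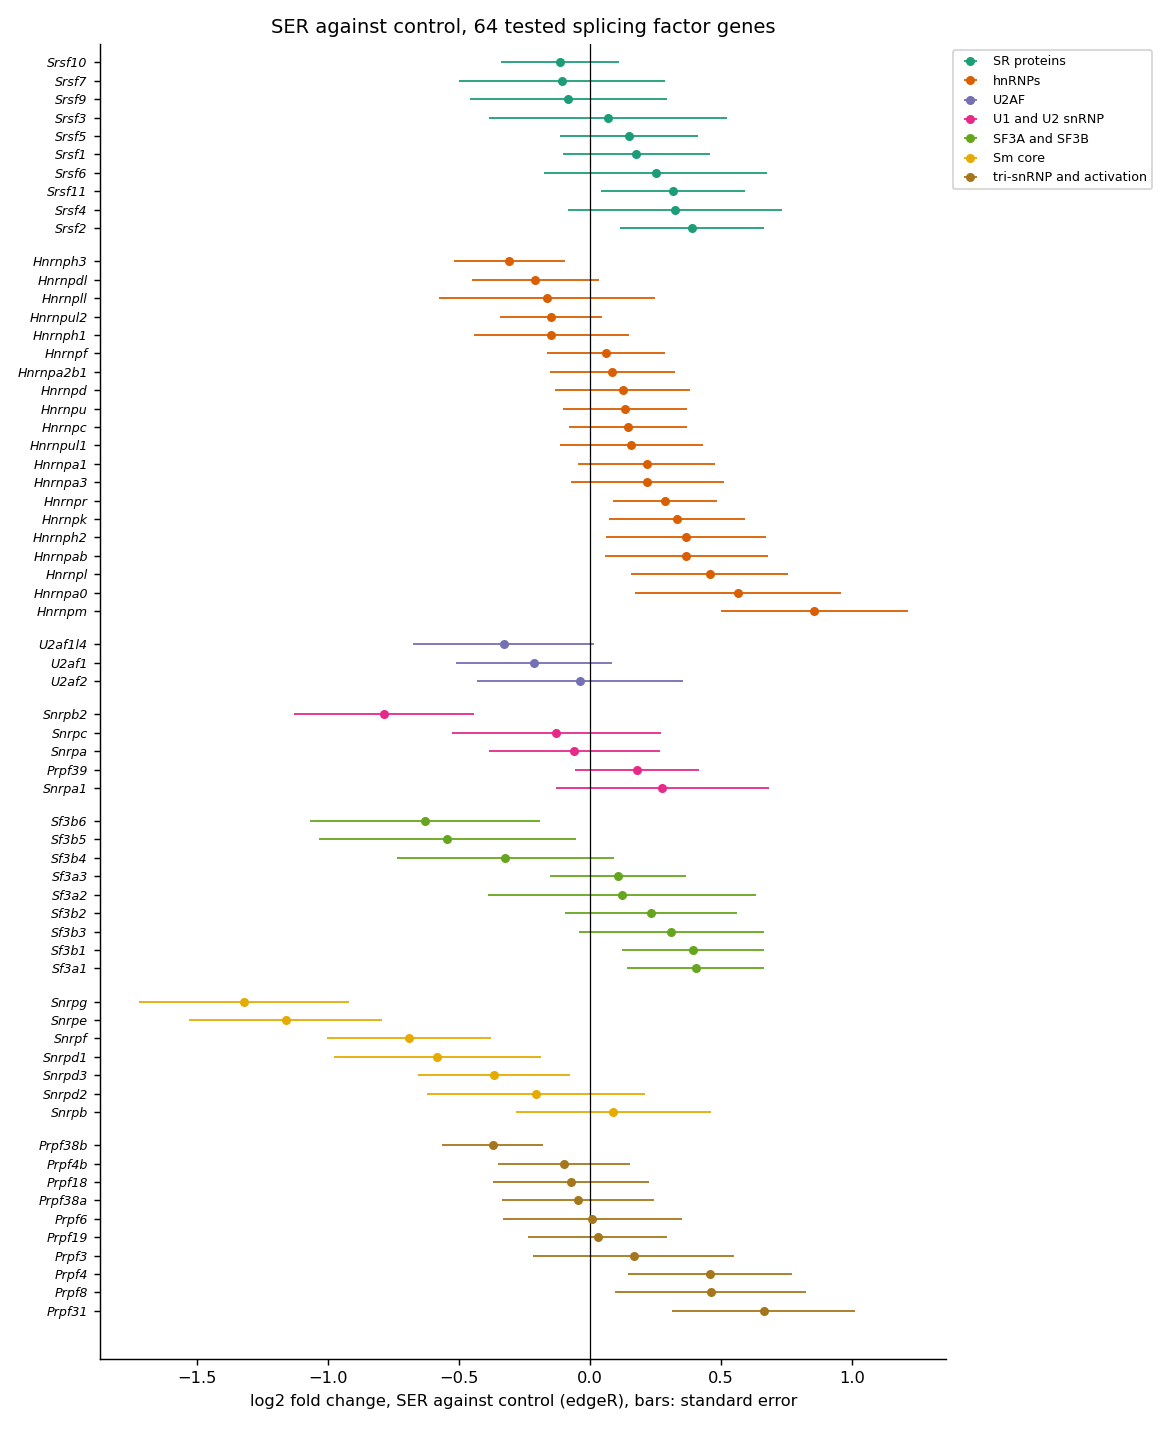
Log2 fold change of SER- against control-generated embryos for 64 tested splicing factors by class (x axis, log2, bars are standard errors). Fitted values run from -1.32 for Snrpg to 0.86 for Hnrnpm, and 6 of the 7 tested Sm core genes lie below 0.

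Sm proteins form the ring on which most snRNPs are built. Of the 7 tested Sm genes, 6 had lower and 1 had higher fitted values after SER. Their median log2 fold change was -0.58. This direction did not hold under limma voom with sample quality weights, where 5 of the 7 were higher and 2 lower, with a median of 0.18. Snrpg (GRCm38 chr6:86371304-86379328, plus strand) had from 76.9 to 1449 CPM in control-generated embryos with a median of 146, and from 46.7 to 205 CPM with a median of 119 in SER-generated embryos. Its log2 fold change was -1.32 (SE 0.402, edgeR adjusted p = 0.403). Snrpe (chr1:133603871-133610291, minus strand) had from 96.1 to 1074 CPM with a median of 144 in control-generated embryos, and from 46.0 to 207 CPM with a median of 117 in SER-generated embryos. Its log2 fold change was -1.16 (SE 0.367, edgeR adjusted p = 0.461). Groups overlapped for both genes, and 3 and 1 near copies of Snrpg and Snrpe elsewhere in the genome could share their reads. Snrpf overlaps genes of the opposite strand over 735 of its 861 exon bases, from which its reads cannot be told apart without strand.

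The difference was smaller without control replicates 1 and 3. These embryos were picked after the data had been seen and hold the highest values of the genes below. Leaving them out had to shrink a difference with higher controls, so the values are a description and no test. Snrpg was at 961 and 1449 CPM in these embryos and at most 237 CPM in any other, and Snrpe was at 946 and 1074 CPM and at most 292 CPM elsewhere. Snrpf was at 122 and 223 CPM in them and at most 77.9 CPM elsewhere, and Snrpd1 was at 1492 and 1438 CPM and at most 749 CPM elsewhere. Without both embryos, the log2 fold change was -0.21 for Snrpg (adjusted p = 0.945), -0.29 for Snrpe (adjusted p = 0.916) and -0.14 for Snrpf (adjusted p = 0.961) by edgeR, and the median of the Sm core was -0.03 with 3 higher and 4 lower. Without control replicate 3 alone, Snrpg was at -0.76 and Snrpe at -0.77.

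The same embryos held more counts on other short genes. The 134 tested genes of at most 1000 exon bases that are not splicing factors took 4.46% and 5.83% of their counts, and 0.693% to 2.44% in the other 29 embryos. Across the tested genes, medians of the log2 fold change were -0.54 at up to 1000 exon bases, -0.18 from 1000 to 2000, -0.05 from 2000 to 3000, 0.02 from 3000 to 5000 and 0.08 above. The splicing factors had medians of -0.69 (1 gene), -0.33, -0.13, 0.06 and 0.16 in the same bins. With a trend on exon length removed from each embryo, 33 were higher and 32 lower, with a median of 0.00, and the Sm core median was -0.46. The part of gene length in the Sm core values was not tested further.

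**Figure D3:**
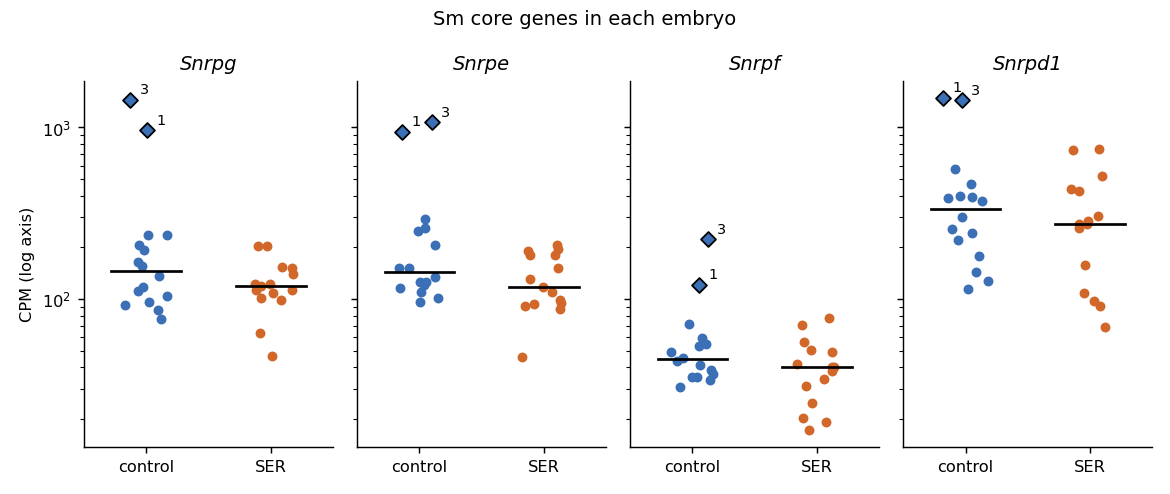
CPM of 4 Sm core genes in each embryo (y axis, log scale) for the 16 control- and 15 SER-generated embryos, with bars at group medians. Diamonds mark control replicates 1 and 3, which hold the highest values of all 4 genes.

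Outside the Sm core, the lower values with the smallest p were those of Snrpb2, a U2 snRNP protein, and of Prpf38b. Snrpb2 had a median of 60.7 CPM in control-generated embryos (27.3 to 262) and of 42.2 CPM in SER-generated embryos (17.2 to 190). Its log2 fold change was -0.79 (SE 0.343, edgeR adjusted p = 0.809), with 12 of the 15 SER values under the control median. Prpf38b had a median of 226 CPM in control-generated embryos (125 to 408) and of 198 CPM in SER-generated embryos (90.4 to 263). Its log2 fold change was -0.37 (SE 0.192, edgeR adjusted p = 0.869), with 13 of the 15 SER values under the control median. The groups overlapped in both genes.

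Among the 20 hnRNPs, 15 had higher and 5 lower fitted values (median 0.15 on the log2 scale). Hnrnpm had from 6.04 to 382 CPM in control-generated embryos with a median of 162, and from 18.3 to 739 CPM in SER-generated embryos with a median of 302. Its log2 fold change was 0.86 (SE 0.356, edgeR adjusted p = 0.776), with 13 of 15 SER-generated embryos above the control median and the groups overlapping. It shares 1169 exon bases on the same strand with March2. Hnrnpl, which binds CA-rich RNA, was at 0.46 (SE 0.299).

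The 10 SR proteins had 7 higher and 3 lower values and a median of 0.16, and the 9 SF3A and SF3B genes had 6 higher and 3 lower and a median of 0.12. Sf3a1, the SF3A subunit that contacts U1, was at 0.40 (SE 0.261), with 13 of 15 SER-generated embryos above the control median. In the tri-snRNP class 6 of 10 were higher with a median of 0.02, with Prpf31 of the U4/U6 particle at 0.66 (SE 0.349), Prpf8 at 0.46 (SE 0.365) and Prpf4 at 0.46 (SE 0.315). All 3 U2AF genes had lower values, from -0.33 to -0.04, and the 6 tested U1 and U2 genes were split evenly. None of these passed the test.

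The genes removed by the filter were read from a fit of all 17803 genes with a count. Snrpn, an imprinted Sm gene expressed from the paternal allele, had a median of 2.67 CPM in control-generated embryos (0 to 11.7) and of 3.60 CPM in SER-generated embryos (0.854 to 24.1). Its log2 fold change was 0.61 (SE 0.644, edgeR adjusted p = 0.790), and Snurf, with which it shares exon bases, cannot be told apart from it. Prpf40b was at -0.32 (SE 0.844) and Hnrnpa1l2-ps2 at -0.11 (SE 0.640), and Srsf12 with its 5 counts was too sparse for a fold.

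The calls moved with the statistical method. Voom with sample quality weights in limma gave an adjusted p under 0.1 to 8 of 65 splicing factors, all with higher values in SER-generated embryos, where 9.89% of tested genes passed. They were Hnrnpk (log2 fold change 0.77, adjusted p = 0.0164), which binds C-rich RNA, Prpf4 (adjusted p = 0.0408), Hnrnpm (adjusted p = 0.0491), the branch-point subunit Sf3b1 (adjusted p = 0.0610), Prpf8 at the catalytic centre (adjusted p = 0.0779), Hnrnpa1 (adjusted p = 0.0837), Srsf1 (adjusted p = 0.0861) and Prpf38a (adjusted p = 0.0862). In that fit 49 of 65 were higher, with a median of 0.26, and Snrpg was at 0.11. With the filter on low counts removed, edgeR passed Snrpg (adjusted p = 0.0815) and Snrpe (adjusted p = 0.0954) as lower in SER-generated embryos, where 2.83% of 17803 genes passed. With 3 estimated clusters of embryos as a factor it passed Hnrnpm (log2 fold change 0.88, adjusted p = 0.0689), where 0.478% of genes passed. Leaving out control replicate 4 and SER replicate 15 gave no call, with Hnrnpm at 0.82 and Snrpg at -1.30.

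Other genes of the splicing machinery, 114 in the table from a fixed list, were read from the same fit. Of the 107 tested, 64 had higher and 43 lower values, with a median of 0.09, and 0 had an adjusted p under 0.1. Ppih, a cyclophilin of the tri-snRNP, was the lowest in p at -1.11 (SE 0.373, edgeR adjusted p = 0.525), followed by the SF3B-associated helicase Ddx42 at 0.50 (SE 0.236, edgeR adjusted p = 0.844) and the tri-snRNP protein Snrnp27 at -0.64 (SE 0.316, edgeR adjusted p = 0.869).

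Embryos of 1 collection time can stand at different points of the turnover from stored to new transcripts, and splicing factors were therefore set against an index. The index is the mean log2(CPM + 1) of 21 zygotic genes minus that of 25 oocyte genes. It was -6.83 in control replicate 4 and -6.14 in SER replicate 15, and between -3.34 and -0.694 in the other 29 embryos, over which the relations were computed. Among these 29, the index rose with log2 total counts (Pearson's r = 0.509, permutation test with 100000 resamples, p = 0.00436), and its mean was higher by 0.43 in SER- than in control-generated embryos (permutation test, p = 0.0698).

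Splicing factors leaned to higher values where the index was higher. Of the 65, 50 had a positive r, with a median of 0.23 against -0.07 over all 8529 genes. By permutation test with Benjamini-Hochberg adjustment over these genes, 9 of 65 had a positive relation at an adjusted p under 0.05, where 3.34% of all genes did, and 0 had a negative one, where 2.5% did. They were Hnrnpa1, Srsf7, Srsf1, Prpf38a, Sf3b6, Srsf3, Snrpc, Hnrnpk and Srsf5, of which 4 are SR proteins. Without the 2 embryos farthest from the median index, 0 of 65 passed over 27 embryos, where 0.0234% of all genes did, so that no call held without them. Of the 65, 49 had a positive r over these 27, and Hnrnpk went from an r of 0.535 to 0.675 (permutation test, adjusted p = 0.0628). The lean was weaker with the zygotic list alone (37 of 65 with a positive r, median 0.07 against -0.08 over all genes). With the oocyte list alone, its sign reversed as in the index, 56 of 65 had a positive r (median 0.33 against 0.04). The lean was not seen in an estimated cluster of 8 embryos (31 of 65, median -0.03 against -0.04). Within the SER-generated embryos alone 0 of 65 passed, where 0.0% of all genes did. Within the control-generated embryos alone 5 passed (Prpf39, Prpf38a, Snrpb, Srsf5 and Sf3b6), where 2.44% of all genes did, and 3 of these are among the 9.

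By Spearman's rho, 15 of 65 had a positive and 2 a negative relation at an adjusted p under 0.05, where 6.67% and 7.83% of all genes did. Of the 9, Srsf5 did not pass by rho (permutation test, adjusted p = 0.0532), and Snrpb, Prpf3, Snrpd2, Sf3a1, Sf3b1, Snrpa1 and Prpf39 passed by rho alone. These calls were counted after the data had been seen.

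Hnrnpa1, which binds exonic silencers, had the highest r at 0.739 (Spearman's rho 0.716, permutation test, adjusted p = 0.00948), and 0.607 over 27 embryos (adjusted p = 0.0909). It has 9 pseudogenes with near-identical sequence, so reads from shared stretches can be lost or assigned to the wrong gene. Srsf7 had r = 0.668 (rho 0.694, permutation test, adjusted p = 0.0122), and 0.589 over 27 embryos. Srsf1 had r = 0.623 (permutation test, adjusted p = 0.0202), Prpf38a 0.589 (adjusted p = 0.0313) and Sf3b6, which contacts the branch-point adenosine, 0.584 (adjusted p = 0.0309). At the other end U2af1l4, a paralog of U2af1, had r = -0.501 (permutation test, adjusted p = 0.0646), Hnrnpul2 -0.393, the ubiquitin ligase Prpf19 -0.359, the kinase Prpf4b -0.316 and U2af2 -0.205. None of the negative relations passed by Pearson's r, and those of U2af1l4 (rho -0.576, permutation test, adjusted p = 0.0252) and Prpf19 (rho -0.532, adjusted p = 0.0358) passed by rho. Depth and index moved together, and the part of depth in these relations was not tested.

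**Figure D4:**
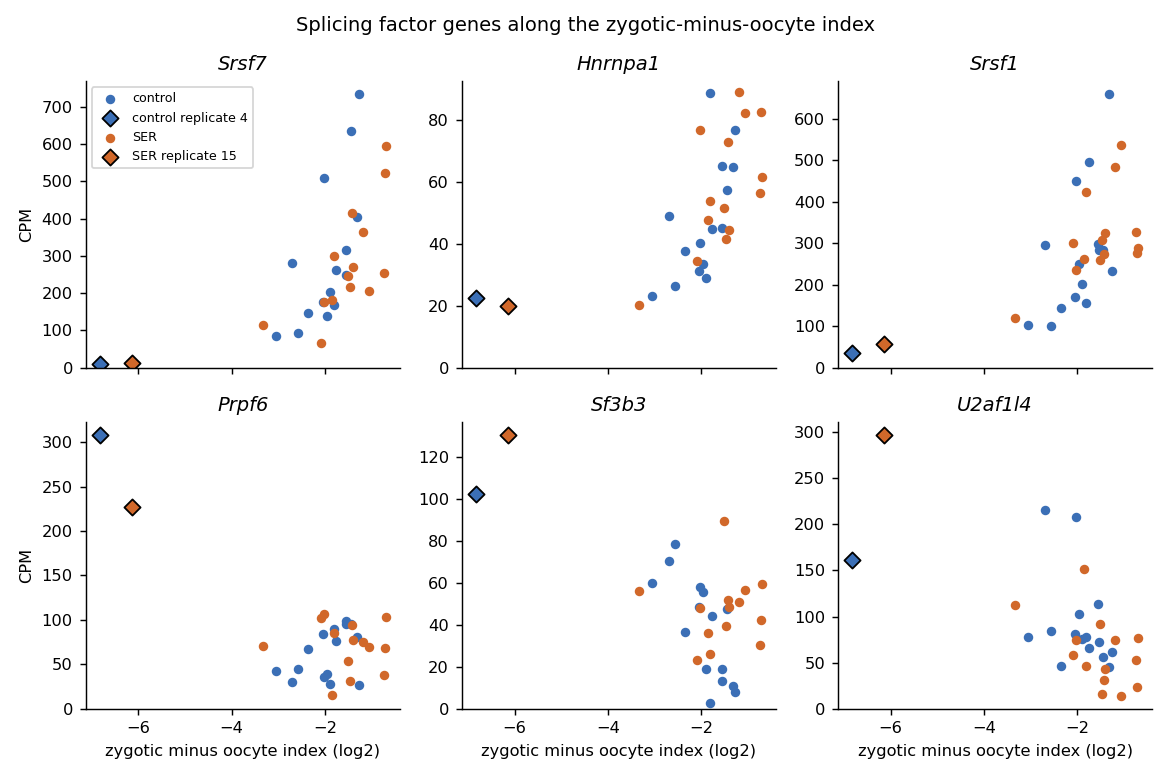
CPM of 6 splicing factors (y axes) against the zygotic-minus-oocyte index (x axis, log2) in control-generated (blue) and SER-generated (orange) embryos. Diamonds are control replicate 4 and SER replicate 15, at -6.83 and -6.14, with Srsf7 and Srsf1 lower and Prpf6 and Sf3b3 higher than in any other embryo.

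By class, all but U2AF had a positive median r. It was 0.38 for SF3A and SF3B, 0.29 for SR proteins and for the U1 and U2 snRNP genes, 0.24 for hnRNPs, 0.23 for the Sm core and 0.21 for the tri-snRNP class, and -0.21 for the 3 U2AF genes. Of the 107 other splicing genes, 11 had a positive and 0 a negative relation at an adjusted p under 0.05, and the median r was 0.16. Over all genes, 3.34% had a positive and 2.5% a negative relation. Without the 2 embryos farthest from the median index, only 2 of all 8529 genes had a positive one.

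Paralogous splicing factors were compared within each embryo as a log2 ratio of counts, with 0.5 counts added to both genes. Library scaling cancels in this ratio, but the added 0.5 makes it depend on depth where a gene has few counts. Of 14 pairs, 13 had counts of both genes in at least 16 embryos, and Srsf10 and Srsf12 were both counted in 3 embryos. Hnrnpdl exceeded Hnrnpd and Hnrnpul2 exceeded Hnrnpul1 in 31 of 31 embryos, also per kilobase of exon. Snrpb exceeded the imprinted Snrpn per kilobase in 31 of 31 embryos. Srsf7 exceeded Srsf3 in 28 of 31 embryos by count and in 29 of 31 per kilobase. Srsf3 has 4 near copies in the genome and Srsf7 has 0, so that their ratio is uncertain.

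The order of the other pairs varied between embryos, and per kilobase of exon Hnrnpa1 exceeded Hnrnpa3 in 27 of 31 embryos, Hnrnpl exceeded Hnrnpll in 24, Prpf38a exceeded Prpf38b in 20, Hnrnph1 exceeded Hnrnph2 in 10 and Srsf4 exceeded Srsf6 in 9. By count these numbers were 17, 20, 14, 16 and 8. With the length of the principal transcript, they were 16, 20, 26, 23 and 9. Hnrnpa3 has 27 near copies in the genome, so that its ratio to Hnrnpa1 is uncertain. Per kilobase of all exons, Srsf1 exceeded Srsf9 in 29 of 31 embryos, and in 22 with the length of the principal transcript. Srsf4 overlaps a gene of the opposite strand over 1532 bases.

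No ratio differed between SER- and control-generated embryos after adjustment over the 13 pairs (0 with an adjusted p under 0.05). Hnrnpd against Hnrnpdl was at -2.89 ± 0.782 (SD, n = 16) in control- and at -2.30 ± 0.706 (n = 15) in SER-generated embryos. The difference was 0.58 (permutation test, p = 0.0382, adjusted p = 0.324). Prpf38a against Prpf38b was at -0.41 ± 1.07 in control- and 0.21 ± 0.533 in SER-generated embryos, a difference of 0.62 (permutation test, p = 0.0499, adjusted p = 0.324). Both pairs overlapped between the groups.

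Control replicate 4 and SER replicate 15 stood out in ratios that hold genes already low in them. Srsf3 against Srsf7 was at 2.36 and 1.99 in them and between -5.16 and 0.91 in the others, with a median of -2.43. U2af1 against U2af1l4 was at -3.66 and -5.72, and between -1.44 and 2.95 in the others. Snrpa of the U1 snRNP against Snrpb2 of the U2 snRNP was at -2.98 and -5.54, and between -2.00 and 3.09 in the others. For these 3 of the 13 pairs both embryos lay outside the range of the other 29. Srsf7, U2af1 and Snrpa are among the 18 genes below the range in both embryos, so these ratios are no separate trait.

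**Figure D5:**
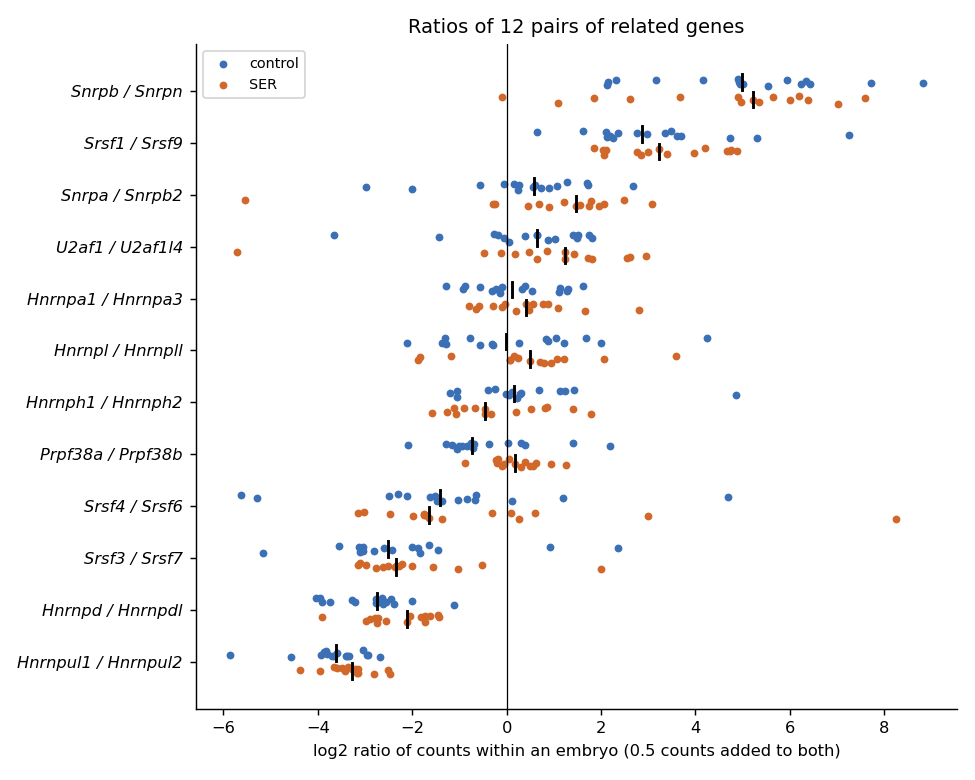
Log2 ratio of counts of 12 pairs of paralogous splicing factors in each embryo (x axis, 0.5 counts added to both genes), control-generated in blue and SER-generated in orange, with bars at the group medians. The groups overlap in every pair, and Hnrnpd against Hnrnpdl and Hnrnpul1 against Hnrnpul2 lie below 0 in all 31 embryos.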

How the data were processed

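Single 2-cell embryos were sequenced by Smart-seq3. The authors aligned 5′ reads carrying molecular identifiers and internal reads with STAR, removed duplicates (Picard for internal reads), merged both and counted reads per gene with featureCounts, on mm10 per the submitters' processing notes. The paper kept reads with identifiers only where they mapped uniquely, and states no such step for internal reads. The deposited values are whole-number counts without normalization, and the strand setting and annotation are not given in the sources used here. Since internal reads lack such identifiers, the error of a value is at least its counting error.

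Counts were tested with edgeR 4.0.16 (R 4.3.3), quasi-likelihood with TMM, over the 8571 genes kept by filterByExpr (minimum count 10, minimum total 15), adjusted by Benjamini-Hochberg at a threshold of 0.1. The test was checked on simulated data. DESeq2 1.42.0, limma 3.58.1, other filters and covariates, thinning to 532945 counts, a length trend, a replicate block and omission of each embryo were alternatives. Exons came from GENCODE on GRCm38, and all 69 members were found. Near copies have 95% identity over at least 200 bases. Relations used 100000 resamples in Python 3.11.15 with scipy 1.17.1, adjusted over all genes in place of the members alone, and 29 embryos were used once a pair formed its own cluster.

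The authors' own correction for batches could not be repeated. Same-numbered embryos were checked for pairing over 15 pairs, and their deviations correlated between -0.368 and 0.494, with 8 of 15 over 0.1. No chance level was computed, so this check does not settle whether the numbers pair embryos. The named genes were the 2 highest per length in each class, the 5 smallest p in each direction, the 5 highest and lowest r, the 3 most and least variable, calls in any alternative, paralog pairs and Snrpn. The members and gene lists were chosen with earlier results of these data known. A gene and its pair that entered the counts are not reported here and not drawn.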

Additional observations from a re-analysis of the deposited data

How the results depend on the processing

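The count of 0 splicing factors past the threshold between SER- and control-generated embryos became 2 without a filter, 8 by limma voom with sample quality weights and 1 with estimated clusters, and it stayed at 0 under every other setting, including each embryo left out in turn (0 to 0). The cause was not tested. With the replicate block over 15 pairs, 0 splicing factors passed and the median log2 fold change was 0.06. Same-numbered embryos correlated best with their own number in 4 of 15 pairs. By voom the median of the Sm core turned from -0.58 to 0.18, and Snrpg to 0.11. Prpf38a, at -0.04, ranged from -0.13 to 0.20 with each embryo left out, and turned to 0.59 by voom, 0.081 with estimated clusters, 0.16 with the replicate block, 0.11 with the block and length trend, 0.29 without control replicates 1 and 3, 0.20 without control replicate 1 and 0.05 without control replicate 2. Srsf1 turned to -0.032 with library size as a covariate.

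Splicing factors positively related to the index, 9 over 29 embryos with 285 of 8529 genes, were 29 over all 31 pooled (2269 genes), 0 over 27 (2 genes), 5 in control-generated embryos alone (208 genes), 0 in SER-generated embryos alone (0 genes), 1 with the zygotic list alone (29 genes), 16 with the oocyte list alone (792 genes), 15 by Spearman's rho (569 genes) and 0 in each of the estimated clusters of 21 and 8 embryos (0 genes). Negative relations, 0 over 29 embryos with 213 genes, were 3 pooled (1104 genes) and 2 by rho (668 genes). With the oocyte list alone there was 1 (653 genes). The oocyte list alone was used with its sign reversed, as it enters the index. A positive relation with it means higher values of a gene where oocyte transcripts were lower. The sign of r turned for Hnrnpul2 to 0.133 pooled and 0.478 in the cluster of 8, and for Prpf4b to 0.192 pooled. With the sign-reversed oocyte list it turned to 0.144 for Prpf19, 0.0962 for Prpf4b and 0.285 for U2af2. For U2af2 it also turned to 0.0747 in the cluster of 8. The paralog ratios kept 0 differences under every setting, with Prpf38a/Prpf38b reaching an adjusted p of 0.0538 (permutation test). The smallest library of 532945 counts limits what can be read of Srsf12, Prpf40b and Snrpn.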
